A study of Mus musculus with 16 samples.

Results

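The Cyp2c family is a group of cytochrome P450 genes, and 10 of them are described here: Cyp2c23, Cyp2c29, Cyp2c37, Cyp2c38, Cyp2c40, Cyp2c50, Cyp2c54, Cyp2c67, Cyp2c69 and Cyp2c70. They are 10 of 30463 genes in the authors' deposited table, where each has 1 row, and 7 other Cyp2c genes stand in the same table. The list was selected on gene name with the fold changes of this table already known, so its values are given as a description and no test of the list was made. Livers of 16 wild-type C57BL/6N mice aged 14 weeks were sequenced. Each mouse was injected at 2 weeks of age with vehicle or with diethylnitrosamine (DEN), a liver carcinogen that P450 enzymes activate. From 6 weeks of age a mouse kept its control diet or was given the diet labelled 60% high fat. The 4 groups hold 4 mice each: vehicle with control diet, DEN with control diet, vehicle with high fat diet, and DEN with high fat diet. The labels name no transgene or mutation in any group and do not give the sex of the mice.

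CYP2C enzymes sit in the endoplasmic reticulum and insert 1 oxygen atom into drugs, steroids, retinoids and polyunsaturated fatty acids, with electrons passed on by the reductase that Por encodes. In liver they turn arachidonic and linoleic acid into epoxides and hydroxylated acids, and the mouse enzyme Cyp2c70 makes muricholic acids, the bile acids typical of rodents. Several mouse Cyp2c genes are known to respond to xenobiotic receptors, and some, such as Cyp2c40 and Cyp2c69, to be higher in female than in male liver under growth hormone control. No pattern by sex was tested here.

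The table holds 1 comparison, made by the authors, and leaves its sides unnamed. A negative log2 fold change is therefore described as a lower level on the positive side of the comparison than on its negative side. The table gives, for each gene, a mean normalized count (the authors' average over libraries, called mean count here), then a log2 fold change and the standard error (SE) belonging to it, and finally raw and adjusted p-values. Called means an adjusted p below 0.05 there, and 95% intervals were computed from the authors' SE. Values per mouse are not analysed here, because the headers of the 16 per-library columns match no label, so no spread between mice and no depth per library can be given. In whole tissue, fewer cells of a type and less RNA per cell cannot be told apart.

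Of the 10 genes, 9 lie in 1 cluster on chromosome 19 from 38976647 to 40187333 in GRCm38, a stretch of 1.21 Mb that holds 14 protein-coding Cyp2c genes and 2 Cyp2c pseudogenes in GENCODE M21. Cyp2c23 stands apart, 3.82 Mb further along the same chromosome, from 44005022 to 44029208. Each of the 10 genes has 9 exons. In the middle of the cluster 4 neighbours, Cyp2c67, Cyp2c68, Cyp2c40 and Cyp2c69, follow one another on the minus strand. Their order along the chromosome and their fold changes are drawn in the map of the cluster.

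**Figure D1:**
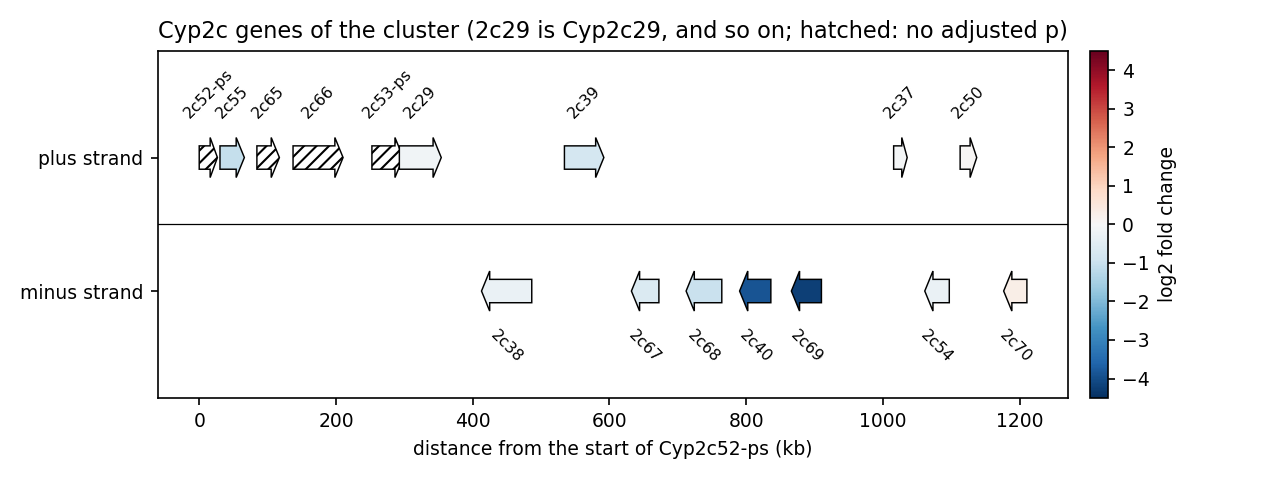
Genes of the Cyp2c cluster as arrows at their distance in kb from the start of Cyp2c52-ps, plus strand above and minus strand below, coloured by log2 fold change (authors' deposited table) and hatched where it gives no adjusted p. The darkest arrows are Cyp2c40 (-3.89) and Cyp2c69 (-4.25), which lie side by side.

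RefSeq promoter windows, from 250 bases before to 50 after each annotated start in GRCm38.p6, matched 8 of the 10 genes, with Cyp2c23 and Cyp2c54 unmatched, and 5 other Cyp2c genes. The windows of the 4 neighbours are printed because Cyp2c40, Cyp2c69 and Cyp2c68 are the Cyp2c genes that were called, and Cyp2c67 is their closest relative that was not. All 4 are on the minus strand and are written 5′ to 3′ as transcribed, with capitals at the motifs CAAAGTCCA and ATTGAT. Their places are chr19:39648993-39649292 for Cyp2c67, chr19:39741052-39741351 for Cyp2c68, chr19:39812765-39813064 for Cyp2c40 and chr19:39886720-39887019 for Cyp2c69.
Cyp2c40: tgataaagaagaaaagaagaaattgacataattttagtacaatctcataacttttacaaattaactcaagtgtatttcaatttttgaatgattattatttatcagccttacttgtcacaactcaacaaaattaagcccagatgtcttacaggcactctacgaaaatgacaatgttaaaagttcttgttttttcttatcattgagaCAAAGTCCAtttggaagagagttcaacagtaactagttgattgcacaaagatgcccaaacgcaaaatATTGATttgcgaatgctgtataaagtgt
Cyp2c69: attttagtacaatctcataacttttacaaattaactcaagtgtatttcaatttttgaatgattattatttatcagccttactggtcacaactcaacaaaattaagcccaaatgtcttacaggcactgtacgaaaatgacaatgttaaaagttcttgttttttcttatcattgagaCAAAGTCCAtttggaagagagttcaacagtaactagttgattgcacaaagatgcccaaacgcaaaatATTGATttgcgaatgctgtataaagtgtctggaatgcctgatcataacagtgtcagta
Cyp2c68: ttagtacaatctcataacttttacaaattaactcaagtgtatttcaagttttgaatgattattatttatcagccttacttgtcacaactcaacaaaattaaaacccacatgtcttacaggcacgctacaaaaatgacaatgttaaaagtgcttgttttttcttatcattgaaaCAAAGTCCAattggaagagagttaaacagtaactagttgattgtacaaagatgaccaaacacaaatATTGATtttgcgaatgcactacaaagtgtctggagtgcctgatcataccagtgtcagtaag
Cyp2c67: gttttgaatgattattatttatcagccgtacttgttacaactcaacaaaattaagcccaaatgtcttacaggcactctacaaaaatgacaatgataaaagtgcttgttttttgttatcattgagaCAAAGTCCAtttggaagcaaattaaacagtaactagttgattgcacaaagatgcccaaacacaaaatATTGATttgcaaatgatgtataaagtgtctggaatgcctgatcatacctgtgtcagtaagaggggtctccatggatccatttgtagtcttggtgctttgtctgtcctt

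The windows of Cyp2c40 and Cyp2c69 differ at 3 of 270 overlapping bases, an identity of 98.9%. Cyp2c68 matched the Cyp2c40 window at 93.3% and Cyp2c67 matched it at 93.2% of the aligned bases. Cyp2c67 and Cyp2c69 were 92.8% identical over 250 bases. Outside these 4 neighbours, the windows of Cyp2c37 and Cyp2c50 were 87.9% identical. Annotated starts differ among the 4 neighbours, so the same stretch sits at different distances from each start.

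Both strands of each window were searched for 4 motifs. CAAAGTCCA, the letters preferred by the liver factor HNF4 alpha, was found in 4 of the 8 listed genes with a window (Cyp2c67, Cyp2c40, Cyp2c69 and Cyp2c70) and in Cyp2c68 and Cyp2c65, beside 0.475% of 32851 RefSeq windows. ATTGAT, the core read by the onecut factors and CUX2, was found in 5 of the 8 (Cyp2c67, Cyp2c40, Cyp2c69, Cyp2c37 and Cyp2c50) and in Cyp2c68, beside 7.54% of all windows. In Cyp2c40, Cyp2c69 and Cyp2c67 the first base of ATTGAT lies 67 bases after that of CAAAGTCCA, and in Cyp2c68 it lies 66 bases after. TATAAA, the letters of the TATA box, follows ATTGAT by 18 bases in Cyp2c40, Cyp2c69 and Cyp2c67, and these letters are not in the Cyp2c68 window. Relative to the annotated start, TATAAA begins at -40 in Cyp2c67. In Cyp2c40 and Cyp2c69 it begins after the annotated start, at 41 and 11. It occurred in 6 of the 8 listed genes and in 13.6% of all windows. TTCNNNGAA, the form bound by STAT5, was in 0 of the 8 windows and in 8.30% of all windows. No match of one motif overlapped a match of another in these windows, and a match is a description of letters and not a site in use. Windows of the 4 neighbours are 90.6% to 98.9% identical over their overlaps, and those of Cyp2c37 and Cyp2c50 87.9%. Matches shared by such near copies are not separate occurrences, so nothing is read from the counts beside the shares of all windows.

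Cyp2c40 and Cyp2c69 were much lower on the positive side of the comparison, by about an order of magnitude, while the 8 other listed genes were not called. Cyp2c40, which hydroxylates arachidonic acid, had a mean count of 68.8 and a log2 fold change of -3.89 ± 0.43 (SE, adjusted p = 1.8e-16) as the authors' deposited table gives it. This corresponds to a 14.8-fold lower level on the positive side, with a 95% interval of 8.28 to 26.4-fold. Cyp2c69 lies next to it on the chromosome. Its mean count was 29.02 and its log2 fold change -4.25 ± 0.58 (SE, adjusted p = 1.3e-10) as the authors' deposited table gives it, with a 95% interval of an 8.68 to 41.6-fold lower level. The intervals of the 2 genes overlap.

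By size, Cyp2c69 ranked 2 and Cyp2c40 ranked 3 among all negative calls of the table. By p-value, Cyp2c40 ranked 7 and Cyp2c69 ranked 21 among the 16288 genes with an adjusted p. Of the 10 listed genes, 2 were called negative and 0 positive, where 6.57% of all tested genes were called, 2.90% of them negative and 3.67% positive in the authors' deposited table. The list was drawn up from this comparison, so nothing is read from that count. All 10 listed genes had an adjusted p, so none was lost to a filter on low values. Their median log2 fold change was -0.28 in the authors' deposited table, beside -0.0044 over all tested genes, and 8 of the 10 were negative in sign, beside 8269 of the 16288.

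**Figure D2:**
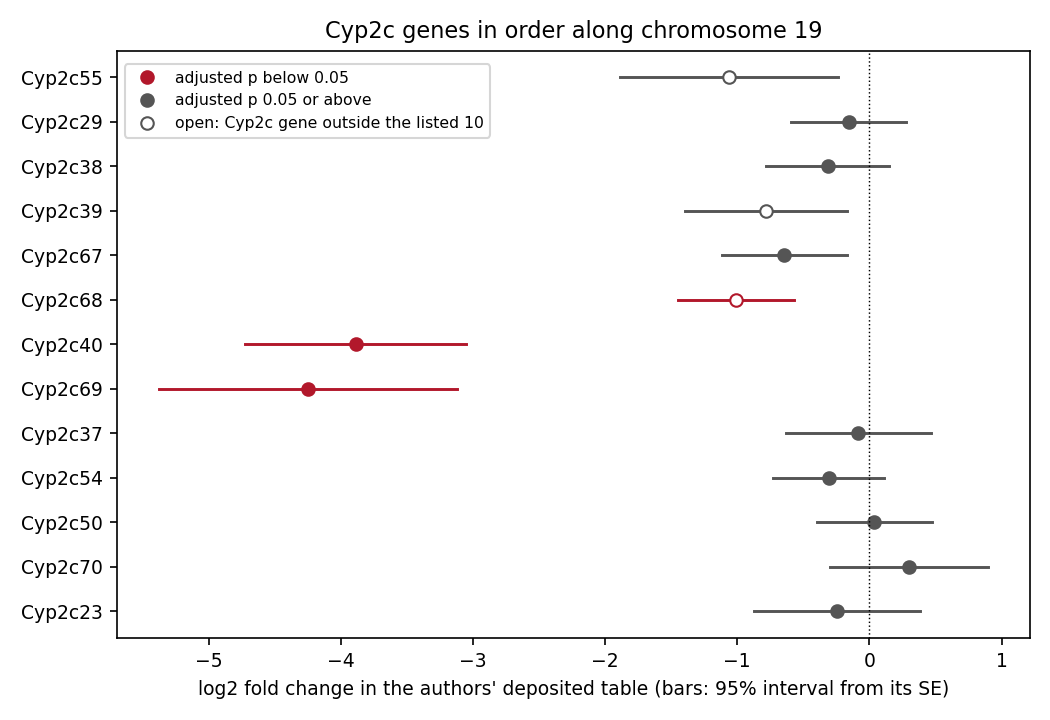
Log2 fold change of the 13 tested Cyp2c genes in chromosome order, with 95% intervals from the authors' SE as bars, red where called and open where the gene is not one of the listed 10. Cyp2c40 and Cyp2c69 lie between -4.25 and -3.89, and the 8 other listed genes lie between -0.64 and 0.30.

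The 2 remaining genes of the block of 4 neighbours were negative by smaller amounts. Cyp2c67 was at -0.64 ± 0.24 (log2 with SE, adjusted p = 0.0866, unadjusted p = 0.00757), per the authors' deposited table and was not called. Its interval runs from a 1.13-fold to a 2.17-fold lower level on the positive side. Cyp2c68, which is not one of the listed genes, was called at -1.01 ± 0.22 (log2 with SE, adjusted p = 0.000483), per the authors' deposited table, a 2.01-fold lower level (1.49 to 2.73). That call was lost with a Bonferroni adjustment by the authors' p-values. Cyp2c40 and Cyp2c69 have intervals that do not meet those of Cyp2c67 and Cyp2c68. The difference between the genes was not tested.

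Levels differed widely inside this block. Divided by transcript length, Cyp2c67 stood at 1140 mean counts per kb and Cyp2c68 at 880, against 38.2 for Cyp2c40 and 17.6 for Cyp2c69, from counts in the authors' deposited table. On that scale Cyp2c67 was 29.9 times Cyp2c40 and 64.6 times Cyp2c69. Mean counts are averages over libraries and the fold changes of these genes differ, so these ratios need not hold on either side of the comparison. The pair with the wide change is also the pair with the lowest level of the 10 listed genes. With their mean counts of 68.8 and 29.02 they sit at the 37.9th and 28.5th percentile of tested genes in the authors' deposited table, and the 8 others at the 83.2nd percentile or above.

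The same 4 genes are the most alike of the family. Over aligned bases, the coding sequence of Cyp2c40 was 98.1% identical to that of Cyp2c68, 97.9% to Cyp2c69 and 97.7% to Cyp2c67. Cyp2c67 and Cyp2c69 were 97.7% identical, with 34 substitutions in 1473 bases. Cyp2c40 has the longest coding sequence of the block, 1560 bases, of which 87 have no counterpart in the other 3 in GENCODE M21.

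Reads from such stretches can match more than 1 gene. Of all 75-base words of the Cyp2c40 transcript, 57.1% also stood in a transcript of another gene, with Cyp2c69 as the main partner. For Cyp2c69 it was 43.2%, for Cyp2c67 36.0% and for Cyp2c68 28.5%. With 100-base words these shares were 44.1% for Cyp2c40, 36.3% for Cyp2c69, 23.7% for Cyp2c67 and 19.8% for Cyp2c68. No source used here gives the read length or the treatment of reads with several matches, so the levels and fold changes of these 4 genes are uncertain to that extent, and its part in the result was not tested.

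**Figure D3:**
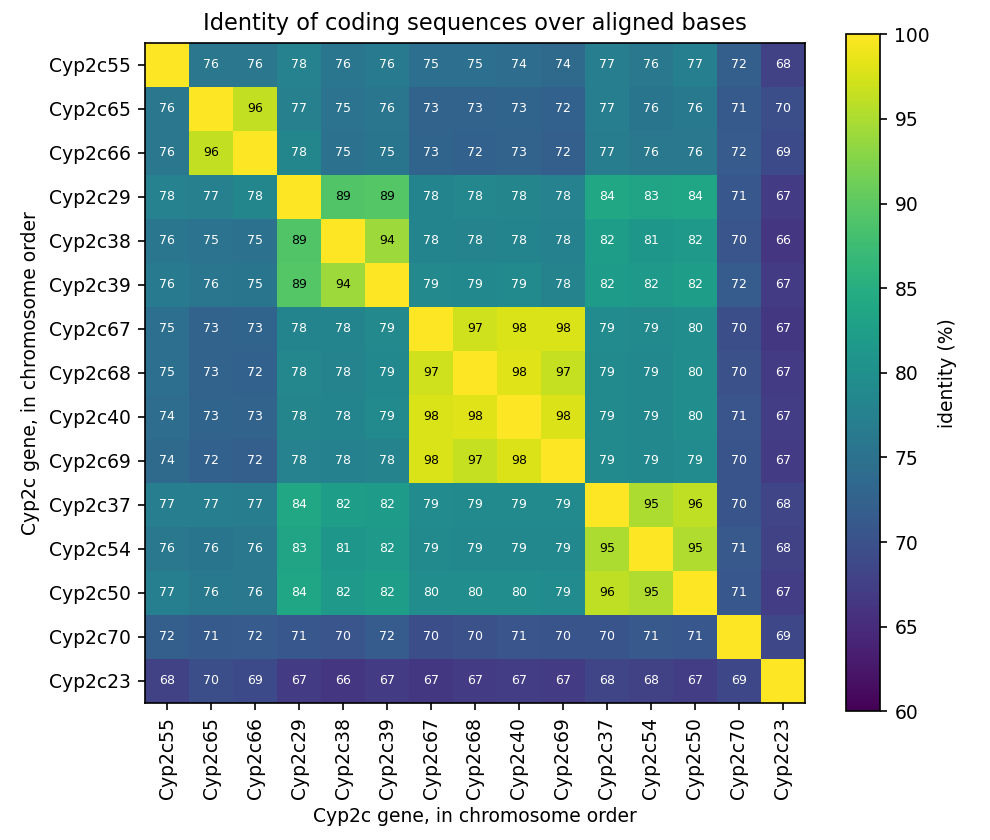
Percent identity of coding sequences over aligned bases for the 15 protein-coding Cyp2c genes, in chromosome order on both axes. The brightest square of 4 genes is Cyp2c67, Cyp2c68, Cyp2c40 and Cyp2c69, a square of 3 is Cyp2c37, Cyp2c54 and Cyp2c50, and Cyp2c70 and Cyp2c23 have no close relative.

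Cyp2c37, Cyp2c54 and Cyp2c50, enzymes that oxidise arachidonic and linoleic acid, form the next block towards the end of the cluster, and none was called. Cyp2c37 had a mean count of 2884 and a log2 fold change of -0.083 ± 0.28 (SE, adjusted p = 0.917) as the authors' deposited table gives it. Cyp2c54, at a mean count of 2639, was at -0.31 ± 0.21 (log2 with SE, adjusted p = 0.462), per the authors' deposited table. Cyp2c50, at 6821, was at 0.036 ± 0.22 (log2 with SE, adjusted p = 0.957), per the authors' deposited table. All 3 intervals include 0, and that of Cyp2c50 spans a level on the negative side of 0.721 to 1.32 times that on the positive side. Coding sequences of these 3 genes are 95.1% to 96.1% identical, and 13.8% to 17.8% of their 75-base words stand in another gene. Unlike the block of 4, they lie on both strands, with Cyp2c54 on the minus strand between the 2 others.

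Cyp2c29, which makes epoxides of arachidonic acid and is known to be induced by phenobarbital, was the second most abundant listed gene per length. Its mean count was 9022 and its log2 fold change -0.16 ± 0.22 (SE, adjusted p = 0.772) as the authors' deposited table gives it. The interval allows a level on the negative side of 0.825 to 1.51 times that on the positive side. Its annotated span overlaps that of the pseudogene Cyp2c53-ps on the same strand, where the mean count was 1.70 in the authors' deposited table. Cyp2c38, another arachidonic acid epoxygenase, had a mean count of 907 and was at -0.32 ± 0.24 (log2 with SE, adjusted p = 0.507), per the authors' deposited table. Its nearest relative is Cyp2c39, 94.2% identical in coding sequence, which is known to act on retinoic acid. Cyp2c39 was at -0.78 ± 0.31 (log2 with SE, adjusted p = 0.112), with a mean count of 96.0 per the authors' deposited table.

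Cyp2c70, the muricholic acid enzyme at the end of the cluster, was the most abundant of the 10. It had a mean count of 12045 and the widest positive value of the list, 0.30 ± 0.31 (log2, SE, adjusted p = 0.660) as the authors' deposited table gives it. The level on the negative side was 0.812 times that on the positive side, with an interval of 0.536 to 1.23. Cyp2c23, also named Cyp2c44 and known as an arachidonic acid epoxygenase of kidney and liver, had a mean count of 3359 and was at -0.25 ± 0.32 (log2 with SE, adjusted p = 0.745), per the authors' deposited table. Both genes are remote from the rest of the family in sequence, and 0 of their 50-base words stood in another gene, so their counts are not touched by shared stretches of that length.

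Per kb of transcript, Cyp2c70 stood at 7015 mean counts, Cyp2c29 at 5060 and Cyp2c50 at 3765, from counts in the authors' deposited table. Then came Cyp2c23 at 1753, Cyp2c37 at 1581, Cyp2c54 at 1477, Cyp2c67 at 1140 and Cyp2c38 at 316. Cyp2c40 at 38.2 and Cyp2c69 at 17.6 closed the order. The spread of these levels over mice is not known, so which neighbours in this order differ cannot be said. The 3 highest genes made up 68.6% of the family's summed level per kb, all 10 made up 95.9%, and the highest was 398 times the lowest. These are averages over libraries and need not hold on either side of the comparison.

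**Figure D4:**
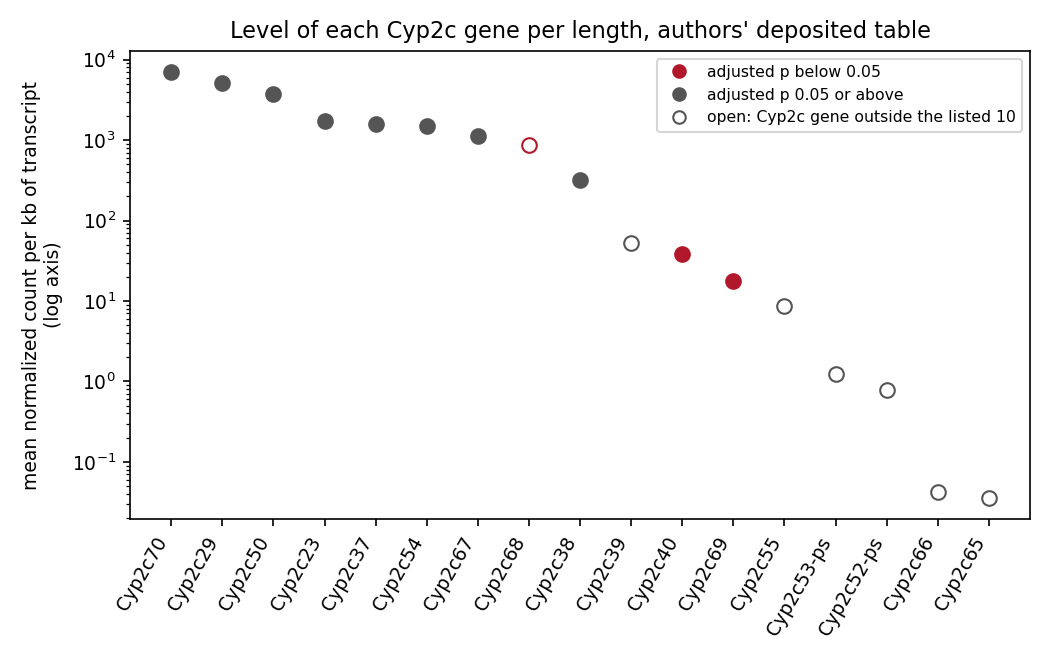
Mean normalized count per kb of transcript (log axis) of the 17 Cyp2c genes of the authors' deposited table, red where called and open where the gene is not one of the listed 10. Levels run from 7015 for Cyp2c70 down to 17.6 for Cyp2c69 among the listed genes, and Cyp2c40 and Cyp2c69 are the lowest filled points.

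The 8 listed genes that were not called had log2 fold changes between -0.64 and 0.30, with a median of -0.20, and 7 of their 8 intervals included 0, in the authors' deposited table. Their SE ran from 0.21 to 0.32, beside a median SE of 0.12 for the 9315 tested genes whose mean count was 100 or more. A missed threshold therefore leaves changes of the size given by each interval possible. At an unadjusted p below 0.05, 3 of the 10 listed genes passed, namely Cyp2c40, Cyp2c69 and Cyp2c67.

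Among the 7 other Cyp2c genes, 3 had an adjusted p and 1, Cyp2c68, was called, negative, beside 2.90% of all tested genes called negative. Besides Cyp2c39 this leaves Cyp2c55, a gene known from intestine, at -1.06 ± 0.42 (log2 with SE, adjusted p = 0.1102), with a mean count of 17.4 per the authors' deposited table. Cyp2c65 and Cyp2c66, which are also intestinal, had a mean count of 0.0684 each, Cyp2c52-ps 1.15 and Cyp2c53-ps 1.70 in the authors' deposited table, and none of these 4 had an adjusted p. All 3 tested ones were negative in sign.

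Hells, Tbc1d12 and Pdlim1, protein-coding genes beside the cluster, were not called. Hells, a chromatin remodelling helicase, was at -0.17 ± 0.29 and Tbc1d12 at 0.0053 ± 0.096 (log2 with SE, adjusted p = 0.815 and 0.987), per the authors' deposited table. At the other end, Pdlim1 was at -0.091 ± 0.11 (log2 with SE, adjusted p = 0.733), per the authors' deposited table. Within the cluster the called genes are flanked by Cyp2c67 and Cyp2c37, neither of them called.

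Genes that work with CYP2C enzymes were taken from lists of related function, and their counts stand beside 6.57% of all tested genes called. Of 4 genes of electron supply, 1 was called, negative: Por, the reductase, at -0.70 ± 0.14 (log2 with SE, adjusted p = 6.1e-05), per the authors' deposited table. The Por call was lost when the authors' statistics were divided by their median absolute deviation (adjusted p = 0.0550). Cyb5b was at 0.35 ± 0.15 and Cyb5r3 at -0.21 ± 0.12 (log2 with SE, adjusted p = 0.146 and 0.296), per the authors' deposited table. Epoxide hydrolases take the epoxides onward, and 0 of 2 tested were called, with Ephx1 at 0.43 ± 0.20 and Ephx2, which hydrolyses fatty acid epoxides, at 0.34 ± 0.17 (log2 with SE, adjusted p = 0.207 and 0.242), per the authors' deposited table. Ephx3 had a mean count of 2.69 in the authors' deposited table and no adjusted p. Enzymes that supply arachidonic and linoleic acid had 0 of 10 called, with the phospholipase Pla2g4a at -0.54 ± 0.19, Acsl4 at -0.34 ± 0.15 and Pla2g6 at 0.28 ± 0.13 (log2 with SE, adjusted p = 0.0589, 0.181 and 0.229), per the authors' deposited table.

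Regulators known for P450 genes are given by list, beside 6.57% of all tested genes called, 3.67% positive and 2.90% negative. The difference from that share was not tested. Of 13 nuclear receptors and liver factors, 0 were called, and the smallest p was that of Hnf4a, at -0.28 ± 0.11 (log2 with SE, adjusted p = 0.0910), per the authors' deposited table. Nr0b2 was at -0.64 ± 0.36 and Cebpa at 0.25 ± 0.16 (log2 with SE, adjusted p = 0.333 and 0.416), per the authors' deposited table. Of 11 genes of growth hormone and sex-biased control, 1 was called positive and 2 negative. Cux2, which encodes the factor CUX2, was at -4.64 ± 0.78 with a mean count of 115 in the authors' deposited table (log2, SE, adjusted p = 8.1e-07). Stat5a, which carries the growth hormone signal, was at 0.76 ± 0.15 and its target Igf1 at -0.33 ± 0.097 (log2 with SE, adjusted p = 4.6e-05 and 0.0151), per the authors' deposited table. The Igf1 call was lost with Benjamini-Yekutieli or Bonferroni adjustment. The median of that list was -0.15, beside -0.0044 over all tested genes.

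Among all tested genes, 3.67% were called positive and 2.90% negative. Bile acid synthesis, the pathway of Cyp2c70, had 0 of 9 tested genes called positive and 2 negative. These were Cyp39a1, an oxysterol hydroxylase, at -1.54 ± 0.24, and Akr1d1, the steroid reductase, at -0.62 ± 0.18 (log2 with SE, adjusted p = 6.2e-08 and 0.0195), per the authors' deposited table. The Akr1d1 call was lost with Benjamini-Yekutieli or Bonferroni adjustment. Cyp27a1 was at 0.31 ± 0.17 (log2 with SE, adjusted p = 0.304), per the authors' deposited table.

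Other P450 families of liver held calls in both directions, and over all tested P450 genes outside Cyp2c 13.0% were called, beside 6.57% of all tested genes in the authors' deposited table. In Cyp2d, 2 of 7 tested genes were called positive, Cyp2d11 at 0.68 ± 0.18 and Cyp2d9 at 0.51 ± 0.15 (log2 with SE, adjusted p = 0.00686 and 0.0139), per the authors' deposited table, with Cyp2d26 at 0.26 ± 0.11 (adjusted p = 0.149). In Cyp3a, 1 of 7 was called negative, Cyp3a59 at -1.14 ± 0.38 (log2 with SE, adjusted p = 0.0426), per the authors' deposited table. Cyp3a25 was at -0.78 ± 0.29 and Cyp3a13 at -0.57 ± 0.22 (log2 with SE, adjusted p = 0.0834 and 0.101), per the authors' deposited table. Among Cyp2a and Cyp2b genes, which share inducers with Cyp2c29, 0 of 7 were called, with Cyp2a5 at -0.43 ± 0.29, Cyp2a4 at -0.89 ± 0.59 and Cyp2b9 at 1.15 ± 0.83 (log2 with SE, adjusted p = 0.433, 0.436 and 0.488), per the authors' deposited table. Of 8 tested P450 genes from Cyp1a, Cyp2e, Cyp2f, Cyp2j and Cyp2u, 1 was called, positive: the epoxygenase Cyp2j5 at 0.32 ± 0.10 (log2 with SE, adjusted p = 0.0343), per the authors' deposited table. Cyp2u1 was at 0.44 ± 0.18 and Cyp1a2 at -0.30 ± 0.27 (log2 with SE, adjusted p = 0.119 and 0.611), per the authors' deposited table. All 4 calls of these families (Cyp2d11, Cyp2d9, Cyp3a59 and Cyp2j5) were lost with Benjamini-Yekutieli or Bonferroni adjustment. Members of Cyp2d and Cyp3a also come in near-identical copies.

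**Figure D5:**
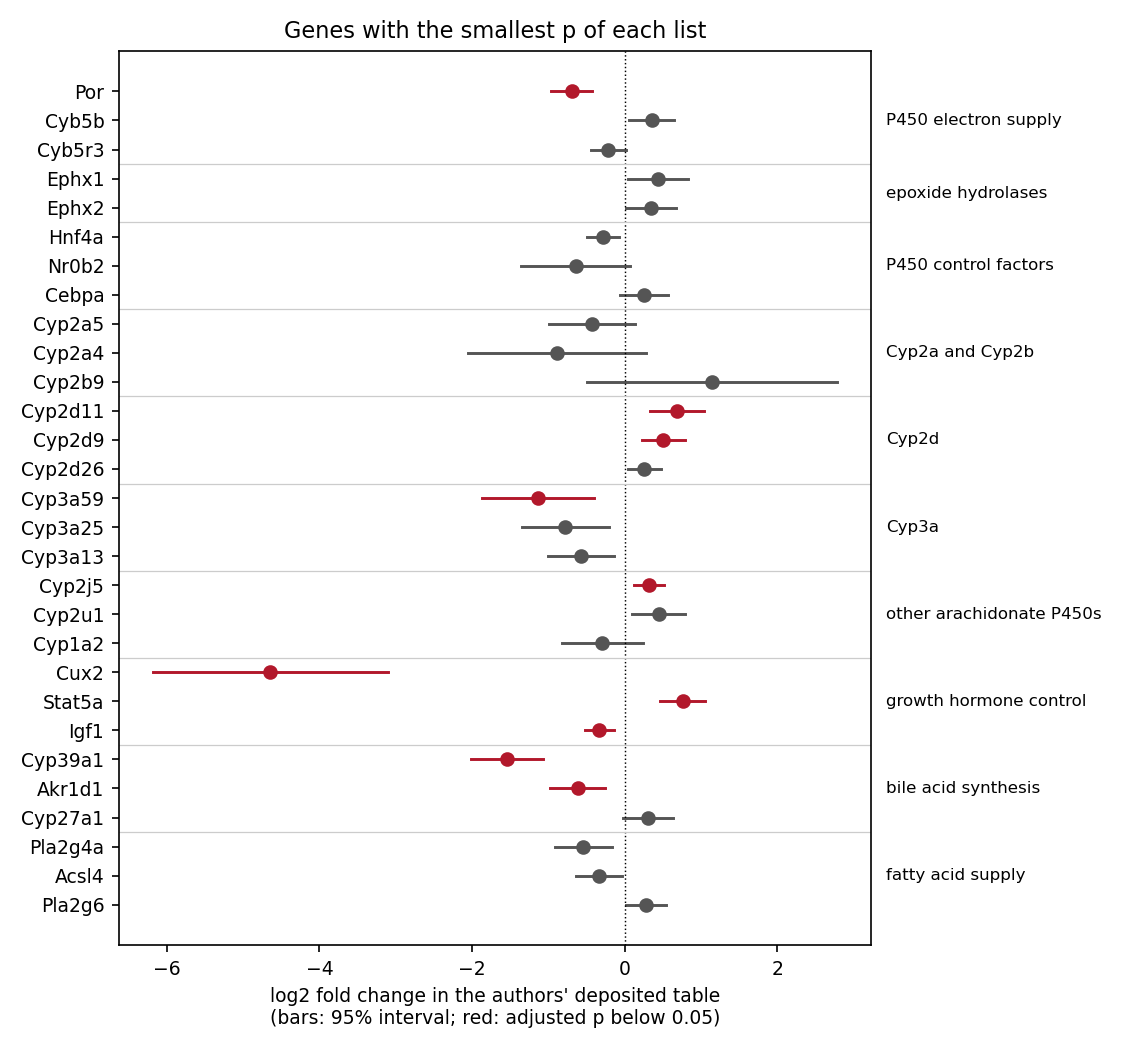
Log2 fold change of the up to 3 genes with the smallest p in each list, with 95% intervals from the authors' SE as bars and called genes in red, grouped by list. Cux2 at -4.64 is the only one of them in the range of Cyp2c40 and Cyp2c69.

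Markers of liver cell types and of other tissues were read from the same table, where 6.57% of all tested genes were called and 2.90% were called negative. Alb stands in both the hepatocyte and the periportal list. All 8 hepatocyte markers were at mean counts of 34531 or more, with 1 called, negative (Ahsg), and a median log2 fold change of -0.26 by the authors' deposited table. Periportal markers had 3 of 6 called negative (Pck1, Gls2 and Hal, median -0.94) and pericentral markers 1 of 7 (Oat, median -0.027) in the authors' deposited table. Kupffer cell markers had 1 of 6 called (Timd4, median -0.62), and endothelial, stellate, cholangiocyte, T and NK, B and neutrophil markers had 0 of 31 called in the authors' deposited table. By sign, 7 of 8 hepatocyte, all 6 periportal, all 6 Kupffer and 4 of 7 pericentral markers were negative in the authors' deposited table. Without a call, all 6 endothelial markers were negative in sign (median -0.39) and all 5 cholangiocyte markers positive (median 0.43) in the authors' deposited table. The medians of the T and NK, neutrophil, B and stellate markers were -0.87, -0.51, -0.076 and -0.071 in the authors' deposited table. The part of these shifts in the values of the Cyp2c genes was not tested. Of intestinal markers, Vil1, Cdx2 and Muc2 had mean counts of 1.65, 0.129 and 3.91, by the authors' deposited table. Vil1 and Cdx2 had no adjusted p, and Muc2 was not called. Fabp2 had a mean count of 1496 and was called positive (log2 fold change 1.44 ± 0.20), by the authors' deposited table. The cell source of the Fabp2 counts was not tested. Of kidney markers, Umod, Slc34a1 and Lrp2 had mean counts of 0.0943, 0.440 and 18.7 in the authors' deposited table.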

How the data were processed

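The members and gene lists were chosen with earlier results of these data known. Trizol RNA of 16 livers went into stranded mRNA libraries, per the labels' protocols. FastQC, Trimmomatic, HISAT2, HTSeq 0.11.1 and GRCm38 are named in the submitters' processing notes, without roles. No source used here gives the strand setting, the read length, or the tool or sides of the comparison. Per the file headers, the deposited table holds a signal column (the mean normalized count), the log2 fold change with its SE on the log2 scale, the test statistic (a score), and the p-value with its adjusted p-value, fitted by the authors across all genes. Adjusted p-values equal Benjamini-Hochberg values over 16288 genes within 1e-06.

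The 16 per-library columns match no label and were not used, so the 3 planned effects (diet, DEN and their interaction) were not run. Called means an adjusted p below 0.05. Intervals are 95% normal intervals from the authors' SE. Levels were divided by the length of the transcript with the longest coding sequence in GENCODE M21, which matched all 17 Cyp2c identifiers. Coding sequences were aligned globally with Biopython 1.88 (match 2, mismatch -3, gap opening -8, extension -1), and words were searched exactly on both strands of 141767 transcripts. Genes named were the listed 10, the other tested Cyp2c genes, protein-coding neighbours of the cluster (1 gene is not reported here), and up to 3 genes of smallest p in each of 10 lists, and the other members of the marker lists and untested Cyp2c genes were named after their values were seen. Hsd3b7, Cyp2d13 and Nphs1 of the lists were absent under those symbols. The adjustment steps and the alignment were tested on simulated data, using Python 3.11.15, scipy 1.17.1 and pandas 2.3.3.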

Additional observations from a re-analysis of the deposited data

How the results depend on the processing

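No paired analysis was possible because no column could be matched to a sample. Of the 10 listed genes, 2 were called (Cyp2c40 and Cyp2c69), and the same 2 genes were called with thresholds of 0.01, with Benjamini-Yekutieli and Bonferroni adjustment, without a filter on low values and with the statistic divided by its median absolute deviation of 1.44. A threshold of 0.10 called 3, adding Cyp2c67. Restricting the table to mean normalized counts of at least 100 called 0, because Cyp2c40 and Cyp2c69 are below that minimum and were not tested there. Among other Cyp2c genes, Cyp2c68 was called, and 0 were called with Bonferroni adjustment or the scaled statistic applied to the authors' p-values. The median of the 10 genes, -0.28, ranged from -0.43 as a mean weighted by precision to -0.16 over Cyp2c23, Cyp2c29 and Cyp2c70 alone, the latter an alternative chosen after seeing the data. Of 229 settings over 33 genes outside the family, also added later, 199 left the call as it was, 26 lost it and 4 gained it. Only a gene called as deposited can lose its call, and the 33 include many that were not called. The 199 therefore do not measure how firm the calls are. Cux2, Stat5a and Cyp39a1 kept their calls in every setting. The losses were those of Por (scaled statistic alone), and of Akr1d1, Igf1, Cyp2d11, Cyp2d9, Cyp2j5 and Cyp3a59, each with Benjamini-Yekutieli and Bonferroni adjustment and the scaled statistic, of all 6 but Cyp2d11 at a threshold of 0.01, and of Cyp2j5 and Cyp3a59 also without a filter on low values. The planned leaving-out by protein identity was not run, nor were the alternatives planned for diet and DEN (DESeq2, low-count filters, the replicate block and leaving out each replicate). Precision was read from the authors' SE alone, since neither depth nor spread per mouse could be read. The uncertainty from stretches shared between Cyp2c genes is not part of that SE.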

Other observations

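Over all P450 genes of the authors' deposited table, a set put together after the values were seen, 82 of 114 had an adjusted p and 12 were called, 5 positive and 7 negative. Outside Cyp2c, 9 of 69 tested P450 genes were called, 5 positive and 4 negative, with a median log2 fold change of 0.030. These are 14.6% of all tested P450 genes and 13.0% of those outside Cyp2c, beside 6.57% of all tested genes; the difference was not tested. The widest positive one was Cyp4a12a, a fatty acid hydroxylase, at 1.55 ± 0.21 (log2, SE, adjusted p = 2.4e-10), per the authors' deposited table. Its close copy Cyp4a12b was at 0.69 ± 0.22 (log2, SE, adjusted p = 0.0370), per the authors' deposited table. On the negative side, Cyp17a1, an enzyme of steroid synthesis, was at -1.35 ± 0.45 and the low-count gene Cyp2g1 at -1.75 ± 0.53 (log2, SE, adjusted p = 0.0472 and 0.0210), per the authors' deposited table. By size, Cyp2c69 and Cyp2c40 ranked 1 and 2 among negative values of all tested P450 genes, and Cyp2c68 ranked 9.

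Cyp2c40 and Cyp2c67 are 97.7% identical over aligned coding bases. Cyp2c40 was at -3.89 ± 0.43 and Cyp2c67 at -0.64 ± 0.24 (log2, SE, authors' deposited table). Averaged over libraries, the level of Cyp2c67 per kb was 29.9 times that of Cyp2c40, a ratio that need not hold on either side. How many reads of Cyp2c40 and Cyp2c69 came from stretches they share with Cyp2c67 and Cyp2c68 was not tested.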
